A study of Mus musculus with 18 samples.

Results

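The nuclear-encoded subunits of the oxidative phosphorylation system were compared, complex by complex, in ventricular myocardium of leptin-deficient ob/ob mice under 3 regimes and of wild type mice. Members were chosen by gene symbol: those beginning Ndufa, Ndufb, Ndufc, Ndufs or Ndufv with a digit, the 4 Sdh genes, and those beginning Uqcr, Cox4 to Cox8 or Atp5. Assembly factors were left out. The rule gave 81 genes of the 18193 genes with a probe set of their own: 35 of complex I, 4 of complex II, 8 of complex III, 17 of complex IV and 17 of complex V. Where a gene had several probe sets, the brightest over the 18 arrays stood for it, and 80 of the 81 passed the filter on low signal. The gene that did not pass was Cox6b2.

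Complexes I and II of the inner mitochondrial membrane take electrons from NADH and succinate and hand them to coenzyme Q. Complex III passes them on to cytochrome c, and complex IV passes them to oxygen. Complexes I, III and IV pump protons, and complex V, the ATP synthase, uses the proton gradient to make ATP. The heart depends on this system for most of its ATP. Most subunits are encoded in the nucleus, and several subunits of complex IV have a second isoform that is specific to heart and skeletal muscle.

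RNA was hybridised to 1 Affymetrix array per sample. Of the ob/ob mice on a C57Bl/6J background, 5 received recombinant mouse leptin from an osmotic mini-pump for 1 month, 5 were calorie restricted for 1 month by pair feeding to the leptin group, and 4 went on eating ad libitum. All ob/ob groups carried the same leptin deficiency and were aged to 6 months before treatment, and no pump is named for the groups without leptin. The reference strain was wild type C57Bl/6J (n = 4), given as 6 months old in one label and as 6 to 8 months in the design. The labels do not state that each array came from a separate animal, so the p-values rest on the spread between arrays of a group, which may be partly technical.

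Between the ob/ob groups, the transcripts of the respiratory chain differed little, and 1 of 80 subunit genes was called in those 3 comparisons. Of all genes tested, 0.644% were called in leptin and 5.42% in calorie restricted against ad libitum hearts. In leptin against calorie restricted hearts the share was 13.6%. Cox8a, a complex IV subunit, was higher with leptin than with calorie restriction. Against wild type, 4 of 80 subunit genes were called higher in calorie restricted hearts, beside 5.02% of all genes tested. They were Ndufb1 and Ndufb6 of complex I, Sdhd of complex II and Uqcrc1 of complex III. Each of these 4 calls was lost with at least 1 single array left out. Calls were made in a limma fit over all 18 arrays, from p-values adjusted by the method of Benjamini and Hochberg over the 13359 genes tested, under 0.05. Values are signals (array intensities, not comparable between probe sets) or log2 differences of signal + 5.13, which understate the change of weak signals.

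The arrays were alike in quality, with correlations of log2 signals between arrays of 0.943 to 0.971 and Gapdh 3' to 5' ratios of 0.797 to 0.868. The trimmed mean of every array was 100.001, as set by the authors' scaling. The mean signal over probe sets outside the 81 genes still ran from 142.5 to 154.1, and it was highest in calorie restricted replicate 4 and second lowest in leptin replicate 3. These were also the arrays with the highest and the lowest mean of the subunit genes. The 12 ventricular cardiomyocyte markers, among them Myh6, Myl2 and Tnnt2, were measured on all arrays, and their mean log2 signal ran from 12.410 in leptin replicate 3 to 13.001 in calorie restricted replicate 4. The summed signal of 6 atrial markers ran from 1561 to 2824 in leptin hearts, 1255 to 15330 in calorie restricted hearts, 581.1 to 2267 in ad libitum hearts and 1313 to 3122 in wild type hearts. The highest sums came from calorie restricted replicates 2 and 3, which had Myl7 signals of 3448 and 3548, against 3.578 to 634.8 in the other 3. Fewer cells of a type and less RNA per cell cannot be told apart in such tissue samples.

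**Figure D1:**
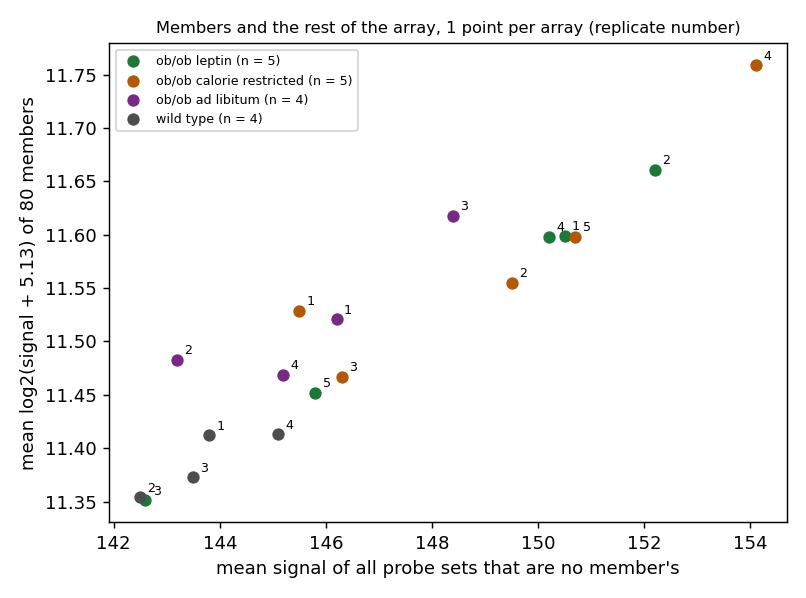
Mean log2 signal of the oxidative phosphorylation genes (vertical axis) against the mean signal of all probe sets outside them (horizontal axis), 1 point per array, coloured by group. Calorie restricted replicate 4 (154.1, 11.759) stands at the top right and leptin replicate 3 (142.6, 11.351) among the wild type arrays at the bottom left.

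As a whole, the subunit genes stood slightly higher in every ob/ob group than in wild type. The mean log2 signal of the 80 genes was 11.599, 11.661, 11.351, 11.598 and 11.452 on the 5 leptin arrays and 11.529, 11.555, 11.467, 11.759 and 11.598 on the 5 calorie restricted arrays. It was 11.521, 11.483, 11.618 and 11.469 on the ad libitum arrays, against 11.412, 11.354, 11.373 and 11.413 on the wild type arrays. All calorie restricted and all ad libitum arrays lay above all wild type arrays, while leptin replicate 3 lay below them. The chosen probe sets of all 81 genes took 4.19% to 4.99% of the total signal in leptin hearts and 4.48% to 5.27% in calorie restricted hearts. They took 4.53% to 4.94% in ad libitum hearts and 4.23% to 4.405% in wild type hearts. After quantile normalization, which gives every array the same distribution of signals, the mean of the subunit genes lay between 11.473 and 11.56 on all 18 arrays. Of the 80 genes, 65 lay above the 99th percentile of the other probe sets on every array. Quantile normalization sets that bright end alike on all arrays, so it would largely remove a shift shared by these genes, whatever its origin. The values after it therefore cannot tell a change of these genes from array-wide signal, here or in the comparisons below.

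**Figure D2:**
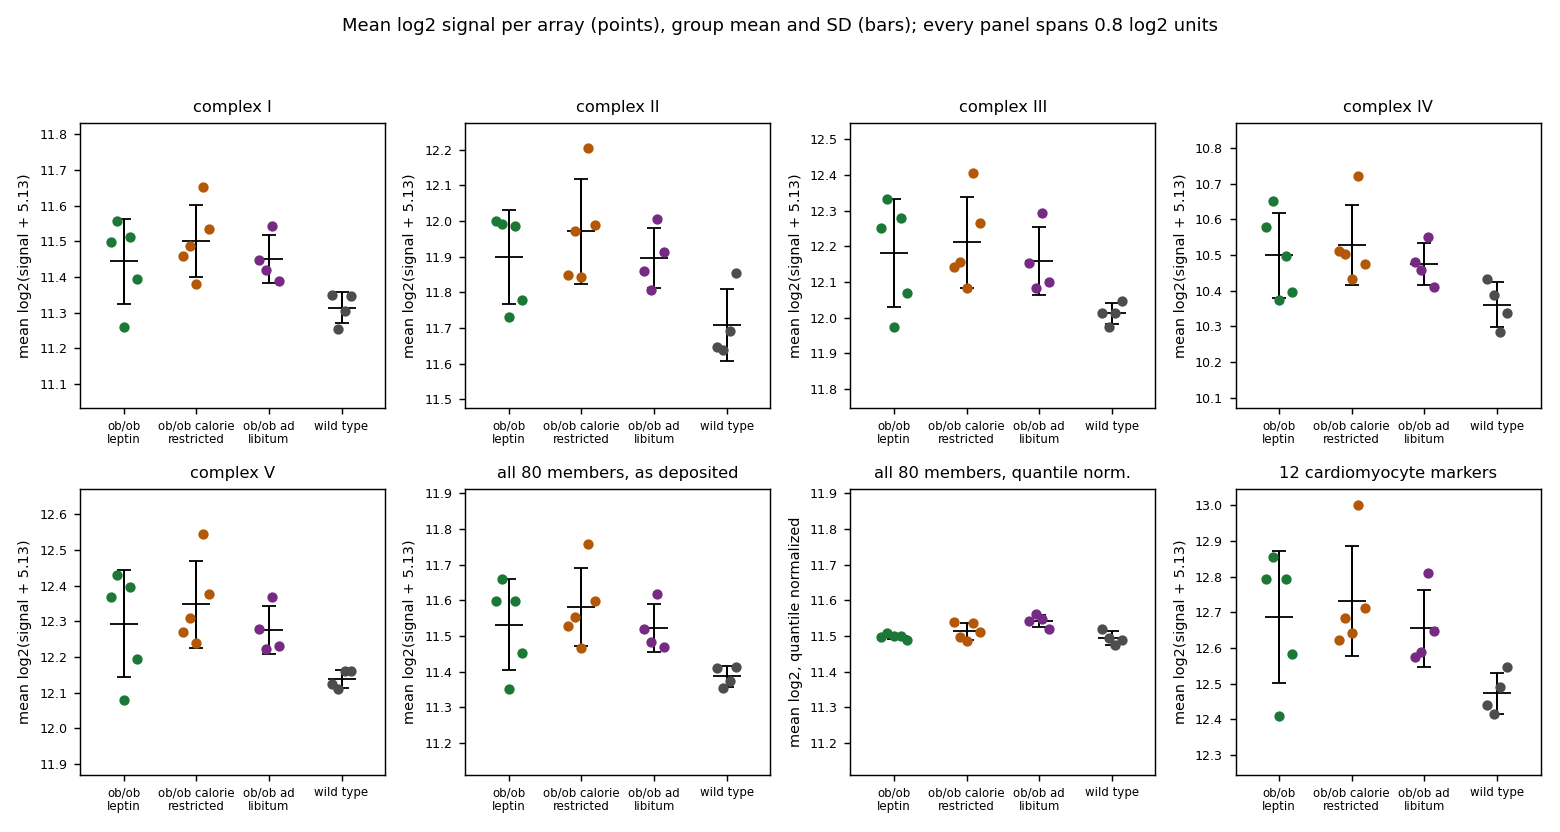
Mean log2 signal per array (points) of the genes of complexes I to V, of all 80 genes as deposited and after quantile normalization, and of 12 cardiomyocyte markers, by group; each panel spans 0.8 log2 units. Calorie restricted replicate 4 is the top point in each complex, and after quantile normalization the 80-gene means lie between 11.473 and 11.56.

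In calorie restricted against wild type hearts, 4 of 80 subunit genes were called, all higher, beside 11.3% of all genes tested (5.02% called higher). Their median log2 difference was 0.21, against 0.002 over all genes tested, and 76 of 80 were positive. On 39 genes (48.8%) every calorie restricted array lay above every wild type array, as it did for 6.68% of all genes. An unadjusted p under 0.05 was reached by 45 subunit genes (56.2%) and by 24.5% of all genes. The cardiomyocyte markers differed by a median of 0.26, with 12 of 12 positive and 0 called. With quantile normalization, which sets all arrays to one distribution, the median over the subunit genes was 0.018 and 46 of 80 were positive. The part of array-wide signal in the difference was not tested. In this comparison 5 of 8 fibroblast and 7 of 8 macrophage markers were called lower, and the part of other cell types was not tested either.

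In ad libitum against wild type hearts, 0 of 80 were called, beside 0.299% of all genes tested. At an unadjusted p under 0.05 there were 5 (6.25%), beside 10.3% of all genes. The median log2 difference was 0.145, and 77 of 80 were positive. These signs are those of the brightest probe set of each gene. Among 45 genes with several sets above the filter, the sets had the same sign in 26 and opposite signs in 19. For Uqcrb a second set gave -0.001 where the chosen set gave 0.239. On 28 genes (35%) the 2 groups did not overlap, with ad libitum higher, beside 3.65% of all genes. The cardiomyocyte markers differed by a median of 0.18, with 12 of 12 positive, and quantile normalization left a subunit median of 0.036 with 60 of 80 positive. Of 8 macrophage markers 1 was positive (median -0.37), and of 6 atrial markers 0 were (median -1.21), with no call in either list. The part of these markers was not tested.

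In leptin against wild type hearts, 0 of 80 were called, beside 0.00749% of all genes tested. Unadjusted, 14 (17.5%) had a p under 0.05, beside 10% of all genes. The median was 0.16 with 77 of 80 positive, no gene had groups that did not overlap (1.59% of all genes did, with leptin higher), and the median after quantile normalization was 0.010. The cardiomyocyte markers differed by a median of 0.22. These 3 comparisons share the wild type arrays.

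In calorie restricted against ad libitum hearts, 0 of 80 were called, beside 5.42% of all genes tested. Unadjusted, 3 (3.75%) had a p under 0.05, beside 19.1% of all genes. The median log2 difference was 0.077 with 66 of 80 positive, but it was -0.019 with 28 positive after quantile normalization. Without calorie restricted replicate 4 it was 0.028. Of 12 cardiomyocyte markers 11 were positive in this comparison, with a median of 0.085. Of the fibroblast markers 5 of 8, of the macrophage markers 3 of 8 and of the endothelial markers 2 of 8 were called lower. The 6 atrial markers had a median difference of 2.22 with 6 positive and 0 called, and the part of these markers was not tested. Between the groups, 1 subunit gene (Cox6a1) did not overlap, beside 4.33% of all genes with calorie restricted higher.

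In leptin against ad libitum hearts, 0 of 80 were called, beside 0.644% of all genes tested, and 2 (2.5%) had an unadjusted p under 0.05, beside 13.5% of all genes. The median was 0.016 with 53 of 80 positive. It was -0.043 with 17 positive after quantile normalization. Without leptin replicate 3 it was 0.069. Of 12 cardiomyocyte markers 11 were positive, with a median of 0.036, and their part was not tested. Cox6a1 was again the 1 gene whose groups did not overlap, beside 2.81% of all genes with leptin higher. Both comparisons use the same 4 ad libitum arrays.

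In leptin against calorie restricted hearts, 1 of 80 was called, Cox8a, beside 13.6% of all genes tested (7.91% called higher). Unadjusted, 5 (6.25%) had a p under 0.05, beside 26.9% of all genes. The median was -0.054 with 22 positive, and -0.016 with 33 positive after quantile normalization. Without leptin replicate 3 it was 0.002. Of 12 cardiomyocyte markers 4 were positive, with a median of -0.055. Of 6 atrial markers 0 were positive, with a median of -1.70 and 0 called. Groups that did not overlap were those of Cox8a, with leptin higher (6.3% of all genes), and of Ndufa2, with leptin lower (4.57%). In the same comparison the fibroblast markers had 5 of 8 called higher, with summed signals of 5390 to 6564 in leptin and 3937 to 5175 in calorie restricted hearts. The macrophage markers had 7 of 8 called higher, with sums of 2464 to 3700 in leptin and 1464 to 2107 in calorie restricted hearts. The endothelial markers had 4 of 8 called higher, with sums of 2905 to 3590 in leptin and 2127 to 2626 in calorie restricted hearts. The part of all these markers in the differences between leptin and calorie restricted hearts was not tested.

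The size of the differences was bounded as well as the arrays allowed. The median standard error of a subunit gene's log2 difference was 0.090 to 0.10 in the 6 comparisons. The 95% confidence interval lay within 0.5 log2 units of 0 for 75 of 80 genes in leptin against ad libitum, 75 in calorie restricted against ad libitum and 73 in leptin against calorie restricted. It did so for 69 in calorie restricted, 74 in leptin and 73 in ad libitum against wild type. The widest intervals belonged to Ndufb4, Cox7b2 and Cox7c, whose probe sets had mean signals of 17.93, 16.73 and 18.01, not far above the added 5.13.

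**Figure D3:**
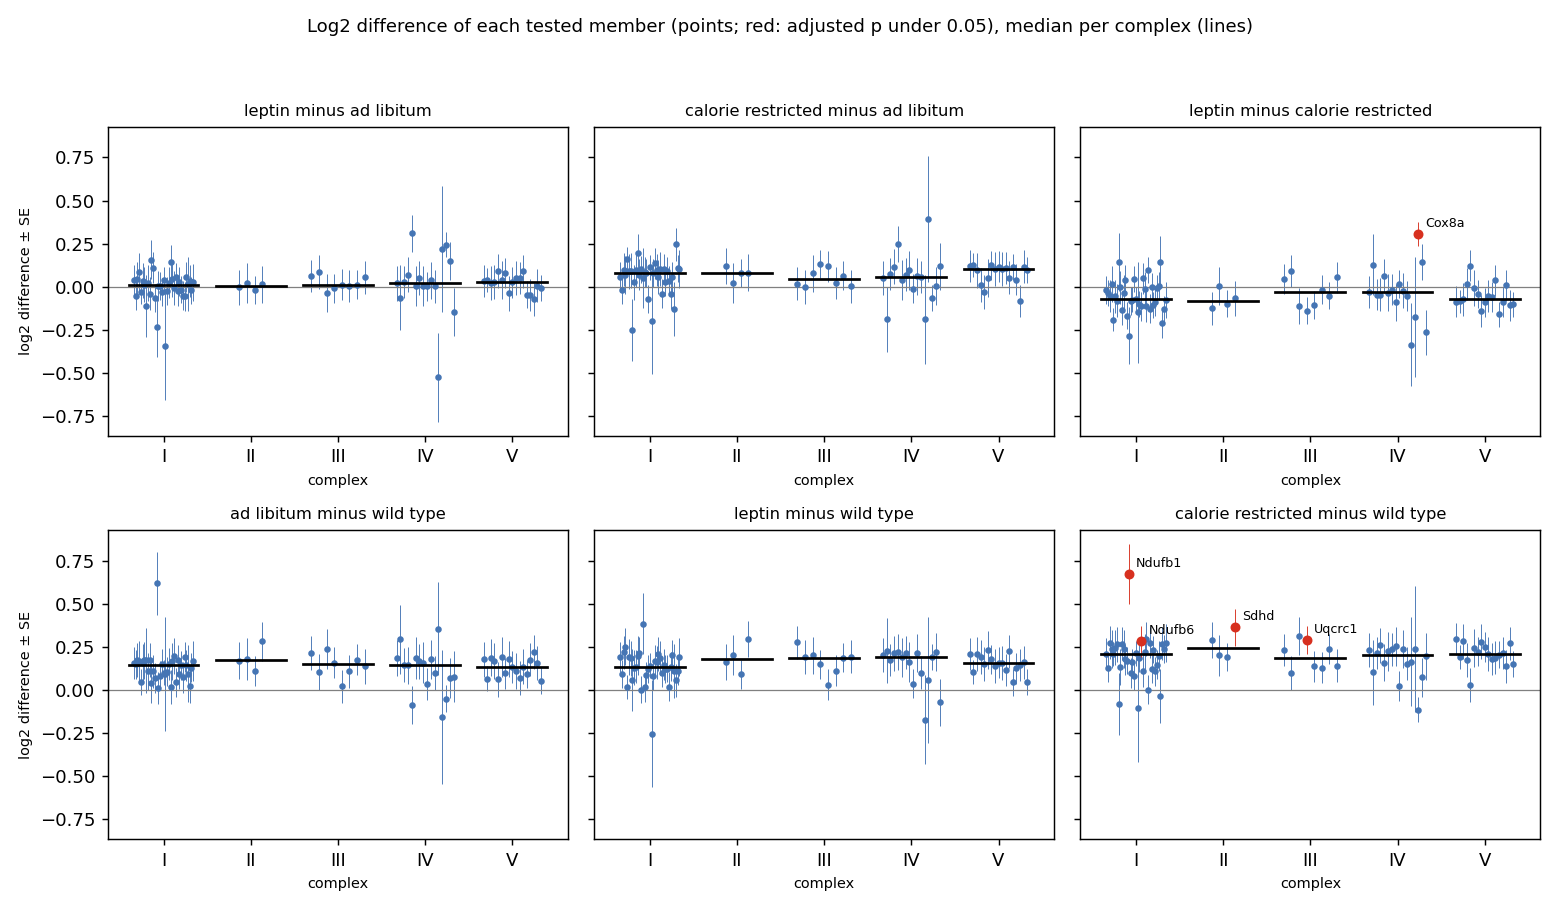
Log2 difference with its standard error for each of the 80 genes in the 6 comparisons, by complex; red points were called and horizontal lines are the medians of a complex. Medians against wild type lie between 0.136 and 0.246 in every complex, and the called genes are Cox8a in leptin against calorie restricted and Ndufb1, Ndufb6, Sdhd and Uqcrc1 in calorie restricted against wild type.

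Complex I is the NADH dehydrogenase, built of a peripheral arm that oxidises NADH and a membrane arm that pumps protons. Its 35 genes had array means of 11.498, 11.557, 11.260, 11.512 and 11.395 (log2) with leptin and 11.458, 11.486, 11.380, 11.652 and 11.535 with calorie restriction. The means were 11.447, 11.419, 11.544 and 11.388 with ad libitum feeding, against 11.350, 11.255, 11.306 and 11.347 in wild type. Calorie restricted and ad libitum arrays did not overlap wild type, and leptin arrays did. The median log2 difference from wild type was 0.136 with leptin (34 of 35 positive), 0.21 with calorie restriction (32 of 35) and 0.144 with ad libitum feeding (35 of 35). After quantile normalization these medians were 0.012 with leptin, 0.027 with calorie restriction and 0.059 with ad libitum feeding. Against ad libitum hearts the medians were 0.011 with leptin and 0.079 with calorie restriction.

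Ndufb1, a small accessory subunit of the membrane arm, had the largest difference from wild type of the 80 genes tested, in each ob/ob group. Its signals were 191, 155.6, 133.8, 155.9 and 198 with leptin, and 240.2, 180.1, 169.2, 217.8 and 213.2 with calorie restriction. They were 176.5, 205, 263.2 and 151.7 with ad libitum feeding, against 168.2, 108.5, 135.3 and 98.75 in wild type. Every calorie restricted array lay above every wild type array, while the leptin and ad libitum arrays overlapped wild type. Calorie restricted hearts were 0.67 ± 0.17 (SE) higher on the log2 scale, a fold of 1.59, with a 95% confidence interval of 0.30 to 1.05 (limma adjusted p = 0.0194). The difference was 0.62 ± 0.18 in ad libitum hearts (adjusted p = 0.198) and 0.39 in leptin hearts (adjusted p = 0.49), neither called. Without wild type replicate 2 the calorie restricted difference was 0.61 (adjusted p = 0.0665), and without wild type replicate 4 it was 0.56 (adjusted p = 0.0695). It was 0.70 (adjusted p = 0.0169) after quantile normalization.

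Ndufb6, another accessory subunit of the membrane arm, had signals of 2387, 2664, 2573, 3086 and 2940 with calorie restriction, against 2462, 2114, 2190 and 2167 in wild type. The groups overlapped through wild type replicate 1. The log2 difference of 0.285 ± 0.090 (SE) was called at a limma adjusted p of 0.0497. It kept its call when calorie restricted replicate 1 or wild type replicate 1 was left out and lost it without any other single array of the groups compared (adjusted p up to 0.137). A second probe set of Ndufb6, with a mean signal of 2483, gave 0.046.

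The regions before the start of these genes are shown because Ndufb1 and Ndufb6 were the complex I genes called. They were searched on both strands for short cores of factors known to act on respiratory chain genes: GCGCATG of NRF-1, AAGGTCA of the estrogen-related receptors, AAGATGG of YY1 and CCGGAAG of GABPA. Each line gives 250 bases before the transcription start from RefSeq on GRCm38.p6, 5' to 3', and capitals mark a core or its reverse complement. Ndufb1 lies at chr12:101975739-101975988 and Ndufb6 at chr4:40279422-40279671, both on the minus strand.
Ndufb1: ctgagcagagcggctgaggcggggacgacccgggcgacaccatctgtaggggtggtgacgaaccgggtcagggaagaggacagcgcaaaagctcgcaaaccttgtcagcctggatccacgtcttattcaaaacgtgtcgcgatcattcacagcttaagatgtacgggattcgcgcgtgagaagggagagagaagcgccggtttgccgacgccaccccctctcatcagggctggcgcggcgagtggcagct
Ndufb6: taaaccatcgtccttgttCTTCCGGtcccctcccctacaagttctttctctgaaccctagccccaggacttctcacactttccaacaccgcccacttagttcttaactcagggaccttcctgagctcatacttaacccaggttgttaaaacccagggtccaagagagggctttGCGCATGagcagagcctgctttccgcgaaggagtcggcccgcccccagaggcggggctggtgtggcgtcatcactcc
The Ndufb6 window held an NRF-1 core and, on the opposite strand, the GABPA core, and the Ndufb1 window held none of these letters.

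A window was found for 66 of the 81 genes, 71 windows in all, and was set beside the 32851 windows of all genes. The NRF-1 core stood in 9 of the 71 (12.7%), against 3.24% of all windows. The GABPA core stood in 12 (16.9%), against 6.91%. The estrogen-related receptor core was in 5 (7.04%), against 4.08%, and the YY1 core in 1 (1.41%), against 4.49%. A match is a run of letters and not a binding site.

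The complex I genes with the smallest p in calorie restricted against ad libitum hearts were Ndufa2, Ndufv1 and Ndufa7. Ndufv1, the subunit that binds NADH and flavin mononucleotide, had signals of 4186, 4136, 3735, 5034 and 4439 with calorie restriction, against 3683, 3344, 3710 and 3735 with ad libitum feeding. The lowest calorie restricted array was level with the highest ad libitum array and the others lay above it. The log2 difference of 0.245 ± 0.095 (SE) was not called (limma adjusted p = 0.157). Leptin arrays, at 4267, 3947, 3337, 3806 and 3234, differed from calorie restriction by -0.21 (adjusted p = 0.134). The other probe sets of Ndufv1 had mean signals of 3583 and 3430. In calorie restricted against ad libitum hearts they gave 0.279 (limma unadjusted p = 0.0089) and 0.243 (unadjusted p = 0.0184). In leptin against calorie restricted hearts they gave -0.132 and -0.133.

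Ndufa2, an accessory subunit of the peripheral arm, had signals of 2091, 2282, 2217, 2370 and 2255 with leptin, against 2380, 2461, 2414, 2724 and 2857 with calorie restriction. All leptin arrays lay below all calorie restricted arrays. The log2 difference of -0.19 ± 0.066 (SE) had a limma adjusted p of 0.0663 and was not called. Calorie restricted hearts differed from ad libitum hearts by 0.16 (adjusted p = 0.215), and Ndufa7 by 0.196 (adjusted p = 0.379).

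Ndufs5, an accessory subunit at the base of the membrane arm, averaged 2861 ± 216 with ad libitum feeding and 2500 ± 136 in wild type (SD, n = 4 each). The groups did not overlap, and the log2 difference of 0.19 was not called (limma adjusted p = 0.476). Ndufb9 differed by 0.198 in the same comparison (adjusted p = 0.545). Ndufb7 differed by 0.145 in leptin against ad libitum hearts (adjusted p = 0.533). Ndufs8, an iron-sulfur subunit, averaged 4653 ± 1126 with calorie restriction against 4954 ± 206 with ad libitum feeding (SD). The calorie restricted signals were 4398, 5554, 2871, 4789 and 5652, with replicate 3 the lowest.

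By their symbols, Ndufa4 and its paralog Ndufa4l2 were counted among the 35 genes of complex I above. Ndufa4 was first described as a complex I subunit and is now assigned to complex IV. It averaged 5120 ± 642.5 with leptin, 5399 ± 529 with calorie restriction (SD, n = 5 each), 5068 ± 534 with ad libitum feeding and 4475 ± 155 in wild type (SD, n = 4 each). Calorie restricted and ad libitum arrays lay above all wild type arrays, with log2 differences of 0.27 (limma adjusted p = 0.106) and 0.17 (adjusted p = 0.623). Its paralog Ndufa4l2, a hypoxia-responsive gene, averaged 163 ± 25.2 with leptin, 149 ± 35.1 with calorie restriction, 179 ± 48.9 with ad libitum feeding and 155 ± 19.8 in wild type. Its difference in calorie restricted against ad libitum hearts was -0.25 (adjusted p = 0.512).

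Complex II is succinate dehydrogenase, which also acts in the citric acid cycle. Its 4 genes had array means of 12.001, 11.992, 11.730, 11.985 and 11.779 (log2) with leptin, and 11.847, 11.972, 11.843, 12.205 and 11.987 with calorie restriction. They had 11.859, 11.806, 12.006 and 11.913 with ad libitum feeding, against 11.647, 11.638, 11.691 and 11.855 in wild type. All ob/ob groups overlapped wild type through wild type replicate 4. The median difference from wild type was 0.18 with leptin, 0.246 with calorie restriction and 0.176 with ad libitum feeding, and all 4 genes were positive in each. After quantile normalization it was 0.016 with leptin, 0.090 with calorie restriction and 0.098 with ad libitum feeding. Against ad libitum hearts it was 0.004 with leptin and 0.079 with calorie restriction.

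Sdhd, one of the membrane anchors of complex II, had signals of 3845, 3709, 2971, 3742 and 3087 with leptin and 3440, 3593, 3212, 4180 and 3730 with calorie restriction. It had 3202, 3202, 3885 and 3433 with ad libitum feeding, against 2650, 2525, 2843 and 3256 in wild type. Wild type replicate 4 overlapped all 3 ob/ob groups, and the other wild type arrays lay below every ob/ob array. Calorie restricted hearts were higher by 0.37 ± 0.11 (SE, limma adjusted p = 0.0361). The call held without calorie restricted replicate 1, calorie restricted replicate 3 or wild type replicate 4, and was lost without any other single array of the groups compared (adjusted p up to 0.12). A dimmer second probe set, with a mean signal of 533.5, gave -0.35. The differences of 0.285 in ad libitum (adjusted p = 0.378) and 0.30 in leptin hearts (adjusted p = 0.408) were not called.

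Sdha, the flavoprotein that oxidises succinate, averaged 4206 ± 405 with leptin, 4609 ± 683 with calorie restriction (SD, n = 5 each), 4215 ± 315 with ad libitum feeding and 3740 ± 193 in wild type (SD, n = 4 each). Calorie restricted and wild type arrays did not overlap, and the log2 difference of 0.29 had a limma adjusted p of 0.0809. Sdhb, the iron-sulfur subunit, differed from wild type by 0.20 with leptin, 0.20 with calorie restriction and 0.18 with ad libitum feeding. For Sdhc, the other anchor, the differences were 0.092 with leptin, 0.19 with calorie restriction and 0.11 with ad libitum feeding, and none of the 6 was called.

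Complex III, the cytochrome bc1 complex, was covered by 8 genes. Their array means were 12.251, 12.332, 11.973, 12.279 and 12.070 (log2) with leptin, and 12.142, 12.157, 12.084, 12.406 and 12.265 with calorie restriction. They were 12.154, 12.084, 12.294 and 12.101 with ad libitum feeding, against 12.012, 11.975, 12.012 and 12.048 in wild type. Calorie restricted and ad libitum arrays lay above all wild type arrays, and leptin replicate 3 lay below them. All 8 genes were positive against wild type in each ob/ob group, with medians of 0.19 with leptin, 0.187 with calorie restriction and 0.15 with ad libitum feeding. After quantile normalization the medians were 0.004 with leptin, -0.011 with calorie restriction and 0.047 with ad libitum feeding. Against ad libitum hearts the median was 0.011 with leptin and 0.042 with calorie restriction.

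Uqcrc1, a core protein of complex III, had signals of 5269, 5259, 4483, 5129 and 4594 with leptin and 5177, 5212, 5115, 6231 and 5544 with calorie restriction. It had 4706, 4716, 5711 and 4800 with ad libitum feeding, against 4362, 4351, 4535 and 4527 in wild type. Every calorie restricted and ad libitum array lay above every wild type array. Calorie restricted hearts were higher by 0.29 ± 0.084 (SE, limma adjusted p = 0.033). The call was kept without calorie restricted replicate 1, 2 or 3 and lost without any other single array of the groups compared (adjusted p up to 0.0852), and the difference was 0.085 (adjusted p = 0.371) after quantile normalization.

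Uqcrc2, the other core protein, averaged 4573 ± 448 with leptin, 4927 ± 505 with calorie restriction (SD, n = 5 each), 4531 ± 308 with ad libitum feeding and 4456 ± 120 in wild type (SD, n = 4 each). Its difference of 0.14 in calorie restricted against wild type hearts was not called (limma adjusted p = 0.376). Uqcrb, which helps to form the ubiquinone binding site, averaged 7280 ± 1038 with leptin, 7848 ± 1011 with calorie restriction, 7412 ± 517 with ad libitum feeding and 6273 ± 284 in wild type. Its calorie restricted and ad libitum arrays did not overlap wild type, with differences of 0.315 (adjusted p = 0.0747) and 0.24 (adjusted p = 0.501). Uqcr10 (0.22), Uqcrh (0.18) and Uqcrq (0.14) had positive differences in ad libitum against wild type hearts, and none was called. The chosen Uqcr10 probe set, with a mean signal of 2891, went against 2 dimmer sets. With mean signals of 550.6 and 246.8, these differed by -0.45 (unadjusted p = 0.0101) and -0.755 (unadjusted p = 0.000152) in calorie restricted against wild type hearts, where the chosen set gave 0.23. In leptin against calorie restricted hearts they differed by 0.60 (unadjusted p = 0.00077) and 0.87 (unadjusted p = 1.63e-05), and the chosen set by 0.044. In leptin against ad libitum hearts Uqcr11 had the largest difference of complex III, 0.086 (adjusted p = 0.759).

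Complex IV, cytochrome c oxidase, has subunits that exist as a pair or trio of isoforms with different tissue distributions. Its 16 genes had array means of 10.579, 10.652, 10.373, 10.496 and 10.395 (log2) with leptin, and 10.510, 10.502, 10.433, 10.722 and 10.475 with calorie restriction. They had 10.480, 10.457, 10.551 and 10.411 with ad libitum feeding, against 10.433, 10.387, 10.285 and 10.338 in wild type. All 3 ob/ob groups overlapped or touched wild type. The median difference from wild type was 0.193 with leptin, 0.207 with calorie restriction and 0.145 with ad libitum feeding. After quantile normalization it was 0.008 with leptin, 0.009 with calorie restriction and 0.007 with ad libitum feeding. Against ad libitum hearts it was 0.023 with leptin and 0.057 with calorie restriction.

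Cox8a, the broadly expressed isoform of subunit 8, separated the leptin and calorie restricted groups. Its signals were 1935, 2015, 1679, 1935 and 1898 with leptin and 1587, 1475, 1435, 1645 and 1495 with calorie restriction. They were 1729, 1576, 1583 and 1498 with ad libitum feeding and 1792, 1662, 1582 and 1571 in wild type. Every leptin array lay above every calorie restricted array, and the lowest leptin array overlapped the ad libitum and wild type groups. Leptin hearts averaged 1892 ± 127 and calorie restricted hearts 1527 ± 86.1 (SD, n = 5 each). The log2 difference of 0.31 ± 0.071 (SE) corresponds to a fold of 1.24, with a 95% confidence interval of 0.16 to 0.46 (limma adjusted p = 0.0081).

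The Cox8a call was kept with each of the 10 arrays of these groups left out in turn (adjusted p 0.00472 to 0.0242) and after quantile normalization (0.315, adjusted p = 0.00519). It was lost without calorie restricted replicates 2 and 3, the arrays with high atrial signal (0.26, adjusted p = 0.0723). It was also lost when all 3 probe sets of Cox8a were averaged (0.070, adjusted p = 0.799). Of these, the second had a mean signal of 1512 and a difference of 0.28 (unadjusted p = 0.00984), and the third, with a mean signal of 10.56, gave -0.38. Leptin hearts differed from ad libitum hearts by 0.24 (adjusted p = 0.155) and from wild type by 0.195 (adjusted p = 0.43), and neither was called.

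Cox8b, the heart and skeletal muscle isoform of the same subunit, had signals of 6851, 7524, 4838, 6352 and 5868 with leptin and 5437, 5309, 5081, 6646 and 5762 with calorie restriction. It had 5887, 5418, 6013 and 5156 with ad libitum feeding and 5365, 5170, 5592 and 5227 in wild type. The groups overlapped, and the difference of 0.145 ± 0.105 (SE) between leptin and calorie restricted hearts was not called (limma adjusted p = 0.413). After quantile normalization it was 0.19 (adjusted p = 0.0364). Cox8c, described as a testis isoform, had 199.4, 160.1, 212.2, 196.5 and 170.2 with leptin and 249, 202.8, 251.6, 233.1 and 196.3 with calorie restriction, a difference of -0.265 (adjusted p = 0.205).

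The regions before the start of both isoforms are shown because only one of the pair was called. They come from RefSeq on GRCm38.p6, at chr19:7217617-7217866 for Cox8a and chr7:140900447-140900696 for Cox8b, both on the minus strand and read 5' to 3'. No capitals appear because none of the cores searched stood in either window.
Cox8a: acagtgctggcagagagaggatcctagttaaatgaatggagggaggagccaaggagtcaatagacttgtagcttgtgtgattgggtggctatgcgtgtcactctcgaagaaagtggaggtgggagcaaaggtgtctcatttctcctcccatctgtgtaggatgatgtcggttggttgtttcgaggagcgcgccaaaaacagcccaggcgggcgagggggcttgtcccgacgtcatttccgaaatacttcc
Cox8b: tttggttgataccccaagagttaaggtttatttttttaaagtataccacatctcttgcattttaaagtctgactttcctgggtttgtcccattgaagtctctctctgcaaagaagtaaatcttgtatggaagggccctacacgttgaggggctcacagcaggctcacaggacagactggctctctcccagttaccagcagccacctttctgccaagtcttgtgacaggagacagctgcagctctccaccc
The absence of these letters says nothing of the factors themselves.

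**Figure D4:**
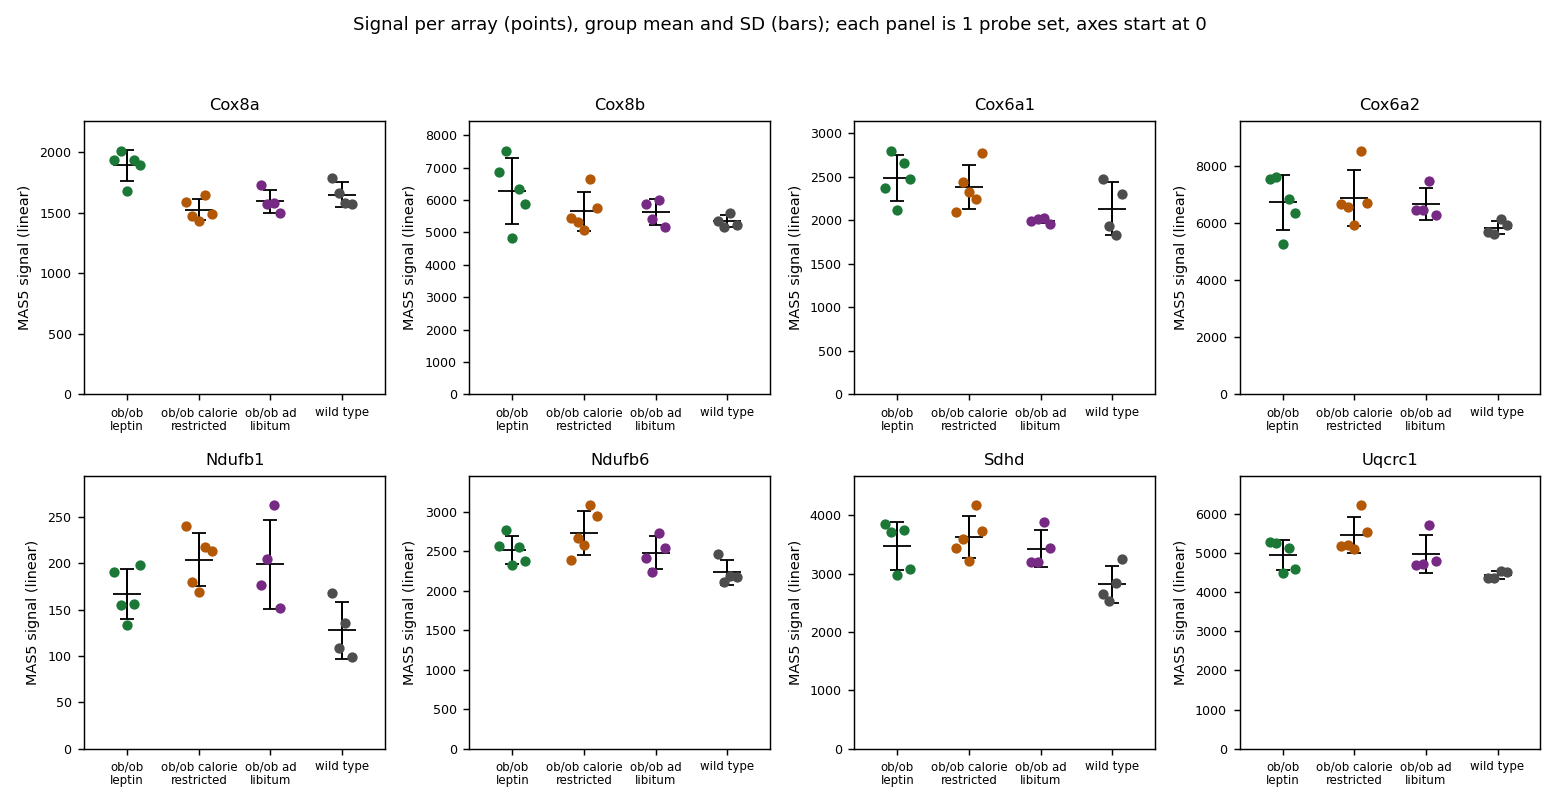
Array signals (points, 1 per array) with group means for Cox8a, Cox8b, Cox6a1, Cox6a2, Ndufb1, Ndufb6, Sdhd and Uqcrc1 in the 4 groups. The 5 leptin arrays of Cox8a (1679 to 2015) lie above the 5 calorie restricted arrays (1435 to 1645), and the 5 calorie restricted arrays of Ndufb1 (169.2 to 240.2) lie above wild type (98.75 to 168.2).

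Cox6a1, the broadly expressed isoform of subunit 6a, had signals of 2373, 2801, 2117, 2656 and 2476 with leptin and 2099, 2439, 2330, 2250 and 2775 with calorie restriction. It had 1996, 2013, 2021 and 1954 with ad libitum feeding and 2476, 1929, 1830 and 2304 in wild type. All leptin and all calorie restricted arrays lay above the narrow range of the ad libitum arrays, which in turn lay within the range of wild type. The differences from ad libitum, 0.31 ± 0.11 with leptin (SE, limma adjusted p = 0.202) and 0.246 ± 0.106 with calorie restriction (adjusted p = 0.21), were not called. A second probe set with a mean signal of 1203 gave 0.089 and 0.134.

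Cox6a2, the heart and skeletal muscle isoform, had signals of 7565, 7631, 5266, 6855 and 6352 with leptin and 6671, 6559, 5954, 8551 and 6717 with calorie restriction. It had 6464, 6477, 7498 and 6277 with ad libitum feeding, against 5693, 5620, 6142 and 5943 in wild type. Differences from ad libitum were 0.002 with leptin and 0.038 with calorie restriction. The ad libitum arrays did not overlap wild type, with a difference of 0.19 that was not called (limma adjusted p = 0.64).

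Cox7a1, the heart and muscle isoform of subunit 7a, averaged 4731 ± 456 with leptin, 4688 ± 442 with calorie restriction (SD, n = 5 each), 4716 ± 268 with ad libitum feeding and 4592 ± 142 in wild type (SD, n = 4 each). The broadly expressed Cox7a2 averaged 6940 ± 979 with leptin, 7018 ± 712 with calorie restriction, 6734 ± 652 with ad libitum feeding and 5927 ± 250 in wild type. Its differences from wild type were 0.22 with leptin, 0.24 with calorie restriction and 0.18 with ad libitum feeding. For Cox7a1 they were 0.038 with leptin, 0.025 with calorie restriction and 0.037 with ad libitum feeding, and none of the 6 was called. Whether the paralogs differ in their response was not tested. Cox7a2l, which helps to join complexes III and IV into supercomplexes, differed from wild type by 0.10 with leptin, 0.155 with calorie restriction and 0.099 with ad libitum feeding, with no call.

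Cox4i1, the main isoform of subunit 4, averaged 6722 ± 865 with leptin, 6854 ± 724 with calorie restriction (SD, n = 5 each), 6604 ± 463 with ad libitum feeding and 5795 ± 155 in wild type (SD, n = 4 each). Its calorie restricted and ad libitum arrays lay above all wild type arrays, with differences of 0.24 (limma adjusted p = 0.143) and 0.19 (adjusted p = 0.58). Cox4i2, an isoform best known from lung, had a weak signal of 45.7 ± 8.15 with leptin, 42.5 ± 14.4 with calorie restriction, 48.1 ± 9.23 with ad libitum feeding and 38.0 ± 5.46 in wild type. Cox6b1 differed from wild type by 0.22 with leptin, 0.24 with calorie restriction and 0.17 with ad libitum feeding, and was not called.

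Cox6b2, the testis isoform of subunit 6b, was the subunit gene left out of the tests for low signal. Its signals were 13.22, 8.294, 18.34, 15.81 and 4.443 with leptin and 36.22, 34.48, 17.63, 33.66 and 36.28 with calorie restriction. They were 23.53, 11.76, 3.15 and 2.616 with ad libitum feeding and 2.564, 20.94, 23.62 and 13.77 in wild type. Of the 5 calorie restricted arrays, 4 lay above every array of the other groups. The deposited table gives no detection calls. In a limma fit over all probe sets other than controls, its log2 difference was 1.44 in calorie restricted against ad libitum hearts (unadjusted p = 0.00341). It was 0.98 in calorie restricted against wild type hearts (unadjusted p = 0.0322) and -1.14 in leptin against calorie restricted hearts (unadjusted p = 0.0108). No limma adjusted p over all genes was given for it.

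Complex V, the ATP synthase, was covered by 17 genes of its catalytic head, stalks and membrane ring. Their array means were 12.367, 12.431, 12.078, 12.397 and 12.195 (log2) with leptin and 12.270, 12.309, 12.238, 12.546 and 12.377 with calorie restriction. They were 12.277, 12.221, 12.369 and 12.231 with ad libitum feeding, against 12.125, 12.110, 12.161 and 12.160 in wild type. Calorie restricted and ad libitum arrays lay above all wild type arrays, and leptin replicate 3 lay below them. All 17 genes were positive against wild type in each ob/ob group, with medians of 0.16 with leptin, 0.21 with calorie restriction and 0.137 with ad libitum feeding. After quantile normalization the medians were -0.014 with leptin, 0.004 with calorie restriction and 0.014 with ad libitum feeding. Against ad libitum hearts the median was 0.027 with leptin and 0.10 with calorie restriction. By limma 0 of 17 were called in any comparison, and in calorie restricted against wild type hearts 11 had an unadjusted p under 0.05, which 24.5% of all genes reached.

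Atp5b, the beta subunit that carries the catalytic sites, averaged 6622 ± 514 with leptin, 7014 ± 365.5 with calorie restriction (SD, n = 5 each), 6430 ± 191.5 with ad libitum feeding and 6137 ± 175 in wild type (SD, n = 4 each). Calorie restricted arrays did not overlap wild type, with a difference of 0.19 (limma adjusted p = 0.0904), and they differed from ad libitum by 0.12 (adjusted p = 0.368). Atp5c1, the gamma subunit of the rotating central stalk, differed from wild type by 0.21 with leptin, 0.28 with calorie restriction (adjusted p = 0.0793) and 0.19 with ad libitum feeding. Atp5e, the epsilon subunit, stood nearest to wild type in the calorie restricted group at 0.031 (adjusted p = 0.899).

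The genes Atp5g1, Atp5g2 and Atp5g3 encode the same mature ring protein with different import sequences. With calorie restriction they differed from wild type by 0.24 (limma adjusted p = 0.18), 0.22 (adjusted p = 0.108) and 0.28 (adjusted p = 0.0778). With ad libitum feeding the differences were 0.195, 0.10 and 0.18, and the arrays of both groups did not overlap wild type for any of the 3 genes. None was called. Of the small membrane subunits, Atp5mpl differed by 0.22 (adjusted p = 0.456) and Atp5md by 0.176 (adjusted p = 0.569) in ad libitum against wild type hearts. Atp5l differed by 0.11 (adjusted p = 0.488) in calorie restricted against ad libitum hearts, and Atp5k by 0.088 (adjusted p = 0.741) in leptin against ad libitum hearts.

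Of 6 listed subunits that the symbol rule did not take, 3 were measured. Ndufab1 of complex I and Cyc1, the cytochrome c1 of complex III, differed from wild type by 0.233 and 0.20 with calorie restriction and by 0.134 and 0.133 with ad libitum feeding, and neither was called. Atpif1, the inhibitor protein of the ATP synthase, differed from wild type by 0.020 with calorie restriction and -0.26 with ad libitum feeding and was not called. The mitochondrial genome was represented by ND5, a proton-pumping subunit of complex I, which averaged 6962 ± 1077 with leptin and 7188 ± 816 with calorie restriction (SD, n = 5 each), 6820 ± 728 with ad libitum feeding and 5759 ± 173 in wild type (SD, n = 4 each). Its differences from wild type were 0.26 with leptin (limma adjusted p = 0.481), 0.31 with calorie restriction (adjusted p = 0.0904) and 0.24 with ad libitum feeding, and none was called.

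The factors that build the complexes, and the enzymes of coenzyme Q synthesis, held calls in both directions. In leptin against calorie restricted hearts, 7 of 44 assembly factors were called higher and 2 lower (20.5% called, beside 13.6% of all genes). Among 15 carriers and coenzyme Q genes 2 were called higher and 1 lower (20%). In calorie restricted against wild type hearts 2 assembly factors were called higher and 4 lower, and 1 carrier or coenzyme Q gene higher and 2 lower. That is 13.6% of the assembly factors and 20% of the carriers and coenzyme Q genes, beside 11.3% of all genes. In calorie restricted against ad libitum hearts 2 of each kind were called lower and none higher (4.55% and 13.3%, beside 5.42% of all genes), and in the other comparisons none was called. The medians of these lists stayed within 0.14 log2 units of 0 between leptin and calorie restricted hearts. Of 29 calls among assembly, coenzyme Q and regulator genes, 14 were kept with each single array left out and 15 were lost with at least 1.

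Among the complex IV factors, Cox19, which helps to supply copper to the enzyme, had signals of 621.3, 575.1, 473.7, 585.2 and 634.3 with leptin and 394.5, 291.1, 371.6, 374.7 and 357.8 with calorie restriction. It had 557.6, 420.5, 468.3 and 555.1 with ad libitum feeding and 576.8, 441.5, 489.1 and 494.5 in wild type. All calorie restricted arrays lay below all arrays of the other groups. Leptin exceeded calorie restriction by 0.68 (limma adjusted p = 0.000699). Calorie restricted hearts differed from ad libitum by -0.475 (adjusted p = 0.0251) and from wild type by -0.48 (adjusted p = 0.0142). Without calorie restricted replicates 2 and 3 these were -0.40 (adjusted p = 0.125) and -0.40 (adjusted p = 0.0766). The call against wild type was lost without wild type replicate 1 (adjusted p = 0.0542). The call against ad libitum was lost without ad libitum replicate 1, ad libitum replicate 4 or calorie restricted replicate 2 (adjusted p up to 0.0853).

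Coa3, which acts on the translation and early assembly of the core subunit of complex IV, had 1206, 1233, 967.6, 1141 and 1209 with leptin against 765.8, 760.6, 756.8, 934.6 and 985 with calorie restriction. The groups overlapped in 1 array each, leptin replicate 3 and calorie restricted replicate 5, and the difference was 0.46 (limma adjusted p = 0.00566). Without calorie restricted replicates 2 and 3 it was 0.36 (adjusted p = 0.0624). Pet100, another complex IV factor, had 365.6, 441.9, 339.3, 405.6 and 399.7 with leptin against 303.9, 303.4, 283.7, 304.3 and 338.1 with calorie restriction. The groups did not overlap, and the difference of 0.34 (adjusted p = 0.0137) was 0.30 (adjusted p = 0.0926) without those 2 arrays.

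Coa7 of complex IV ran the other way, with 92.5, 80.96, 106.6, 102.6 and 120.3 with leptin and 138.4, 167, 176.5, 134.8 and 163.2 with calorie restriction. It had 145.2, 141.6, 117.2 and 118 with ad libitum feeding and 118.1, 85.93, 86.22 and 106.4 in wild type. The calorie restricted arrays lay above all leptin and all wild type arrays. Leptin differed from calorie restriction by -0.61 (limma adjusted p = 0.00305) and calorie restriction from wild type by 0.63 (adjusted p = 0.004). With all probe sets of the gene averaged, leptin differed from calorie restriction by -0.33 (adjusted p = 0.077).

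Of the complex I factors, Ndufaf3 had 578.8, 567.3, 510.4, 538.6 and 580.3 with leptin against 478.3, 457.1, 437.6, 474.6 and 446.4 with calorie restriction. The groups did not overlap, and leptin was higher by 0.27 (limma adjusted p = 0.00806). Timmdc1, a membrane arm assembly factor, had 231, 277.5, 214.3, 209.8 and 247.5 with leptin and 181.1, 112, 159.8, 148.2 and 187.6 with calorie restriction, again without overlap. It was higher with leptin by 0.58 (adjusted p = 0.0137). Without calorie restricted replicates 2 and 3 the differences were 0.25 (adjusted p = 0.0597) for Ndufaf3 and 0.44 (adjusted p = 0.0911) for Timmdc1. The Timmdc1 call was also lost with atrial signal as a covariate.

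Coq2, the enzyme that joins the isoprenoid tail to the coenzyme Q ring, had 963.2, 899.6, 955.2, 951.2 and 902.4 with leptin and 770.4, 752.1, 747.4, 835.7 and 845.8 with calorie restriction. It had 944.2, 914.7, 893.7 and 965.5 with ad libitum feeding and 945.7, 972.5, 962.2 and 978.3 in wild type. All calorie restricted arrays lay below all other arrays. Leptin exceeded calorie restriction by 0.24 (limma adjusted p = 0.0112), which was 0.19 (adjusted p = 0.0996) without calorie restricted replicates 2 and 3. That call was also lost with atrial signal as a covariate and with only the 2 groups compared in the fit. Calorie restricted hearts differed by -0.29 from wild type (adjusted p = 0.0064) and by -0.23 from ad libitum (adjusted p = 0.0364). The call against wild type was kept with each single array left out. It was lost without calorie restricted replicates 2 and 3 and with only the 2 groups compared (adjusted p up to 0.0576). The call against ad libitum was kept in 2 of 9 fits with a single array left out and lost in the others (adjusted p up to 0.104).

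Coq7, a hydroxylase late in the same pathway, was lower with leptin, at 1206, 1237, 1298, 1368 and 1310 against 1520, 1550, 1443, 1608 and 1838 with calorie restriction. The groups did not overlap, and the difference was -0.31 (limma adjusted p = 0.0149). Against wild type, at 1356, 1207, 1144 and 1323, calorie restricted hearts were higher by 0.34 (adjusted p = 0.0142), a call lost without wild type replicate 3 (adjusted p = 0.0507). Coq4, needed for coenzyme Q synthesis, had 120.9, 121.9, 104.2, 116.8 and 85.64 with calorie restriction against 178.4, 143.7, 154.9 and 146.8 in wild type, a difference of -0.49 (adjusted p = 0.00778). Genes of coenzyme Q synthesis were thus called in both directions.

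The remaining calls were also lost with at least 1 array left out. With leptin against calorie restriction these were Sdhaf4 (0.32), Bcs1l (0.45), which inserts the Rieske protein into complex III, Coq6 (0.25), and Cox10 (-0.35), which takes part in heme A synthesis. With calorie restriction against wild type they were Sdhaf1 (0.32), Sdhaf4 (-0.32), Cox20 (-0.27) and Timmdc1 (-0.57). With calorie restriction against ad libitum feeding they were Ndufaf2 (-0.37) and Pdss2 (-0.42). The fibroblast and macrophage markers given above differed between the same groups, and their part in these calls was not tested.

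**Figure D5:**
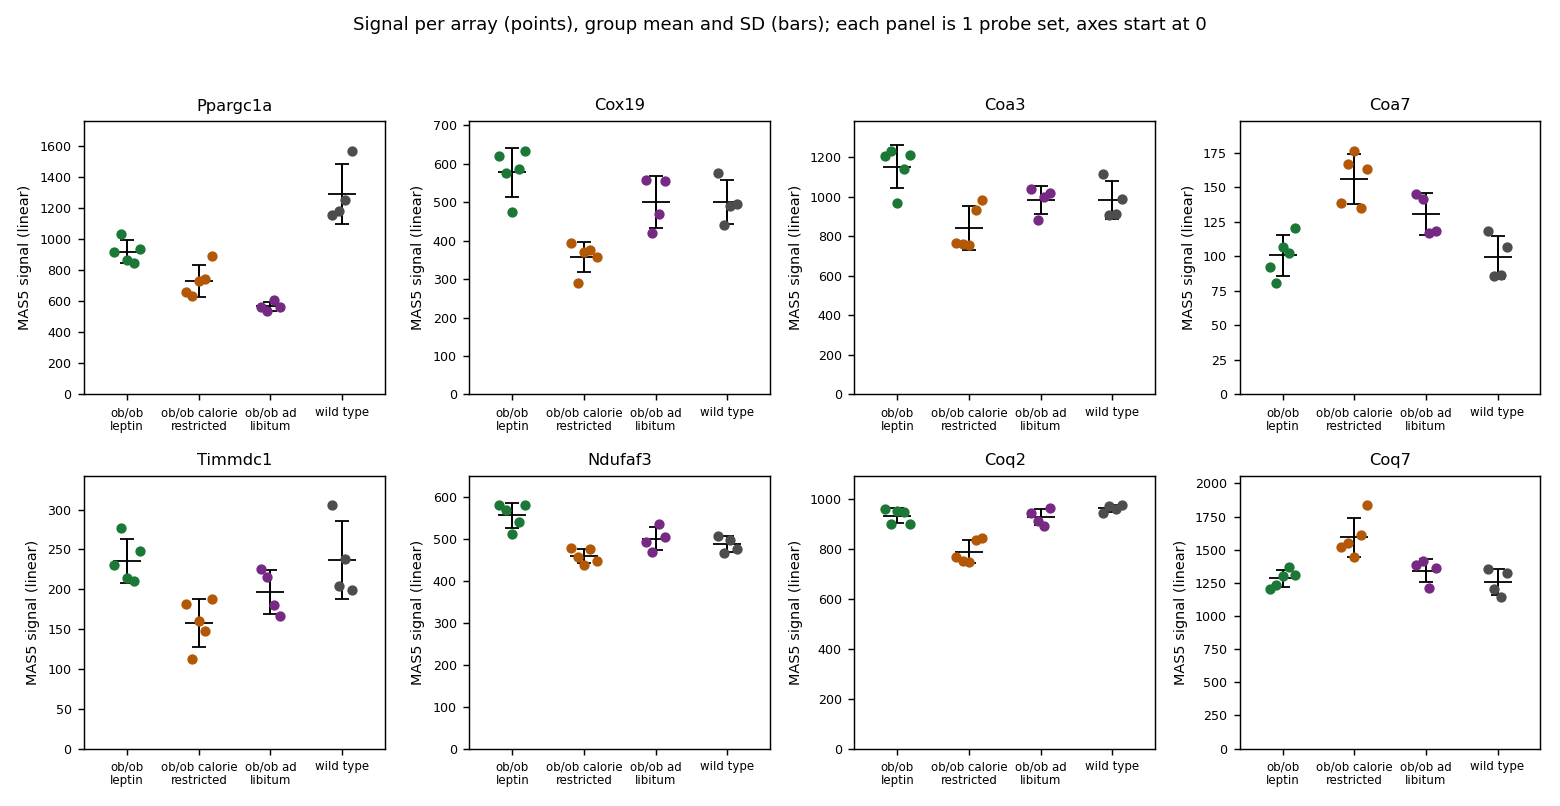
Array signals (points, 1 per array) with group means for Ppargc1a, Cox19, Coa3, Coa7, Timmdc1, Ndufaf3, Coq2 and Coq7 in the 4 groups. The calorie restricted arrays of Cox19 (291.1 to 394.5) and Coq2 (747.4 to 845.8) lie below all other arrays, and the ad libitum arrays of Ppargc1a (538.4 to 606.8) lie below all others.

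Ppargc1a encodes PGC-1alpha, a coactivator known to raise the expression of respiratory chain genes in heart. Its signals were 915, 1034, 866.1, 844.2 and 937.3 with leptin and 659.4, 630.5, 732.8, 744.9 and 893.5 with calorie restriction. They were 563.5, 538.4, 606.8 and 560.9 with ad libitum feeding, against 1152, 1181, 1250 and 1569 in wild type. Every ob/ob array lay below every wild type array, and the ad libitum arrays were the lowest. Ad libitum hearts differed from wild type by -1.17 ± 0.115 (SE, limma adjusted p = 0.000104) and calorie restricted hearts by -0.81 (adjusted p = 0.000241). The difference of leptin hearts from wild type, -0.48, was not called (adjusted p = 0.213), and leptin exceeded ad libitum by 0.69 ± 0.11 (adjusted p = 0.0087).

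Leptin also exceeded calorie restriction in Ppargc1a by 0.33 (limma adjusted p = 0.0396), a call kept with 3 of 10 single arrays left out, while the subunit median of that comparison was -0.054. Esrra, Nrf1, Gabpa, Tfam and Yy1, which encode transcription factors of respiratory chain genes, were not called in any comparison. Tfam averaged 378 ± 41.3 with leptin, 375 ± 39.8 with calorie restriction (SD, n = 5 each), 367 ± 31.1 with ad libitum feeding and 383 ± 11.1 in wild type (SD, n = 4 each).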

How the data were processed

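RNA of ventricular myocardium was measured on 18 arrays in 4 groups, taken from the sample titles. The authors deposited linear intensities, 1 for each probe set on an array. Per the submitters' processing notes they come from MAS5, whose version is not given in the sources used here. The trimmed mean of every array was 100.001, so total signal per array cannot be compared. Of 45101 probe sets, 64 were controls, 34945 had 1 gene symbol, 932 had several and 9160 were not listed in the platform annotation; sets with 1 symbol were used. The 7 matching genes found only on sets with several symbols were left out, and 0 columns belonged to no sample. Array number limits the precision.

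Intensities were transformed as log2(signal + 5.13), the added value being the 20th percentile of all signals. Genes with a mean under 4.363, the 40th percentile of all probe sets, were left out. One model over all 18 arrays was fitted with limma 3.58.1 in R 4.3.3, with 6 two-sided contrasts and Benjamini-Hochberg adjustment over 13359 genes in each. The procedure was tested on simulated data with errors drawn independently for each gene. That simulation does not cover shifts shared by many genes of an array. Errors are SE of the fit or SD between arrays. The 95% confidence intervals used that SE without the degrees of freedom that limma adds from all genes. They are therefore wider than the limma tests imply.

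Members and gene lists were chosen with earlier results of these data known. Named were all called members, the 3 per complex with the smallest p in calorie restricted or leptin against ad libitum and ad libitum against wild type, the isoform pairs, the Sdh genes, called genes of the assembly and coenzyme Q lists, and 6 regulators; Ndufs8 and others outside the rule were chosen after their values were seen. Replicate numbers are shared by the groups, but 25 same-numbered pairs had a median correlation of deviations of -0.025, with 1 over 0.1, and 96 other pairs had 0.011, so the numbers were not taken to pair samples. Alternatives varied the added value, filter, scaling, probe set choice, arrays fitted, variance prior, replicate block, an atrial covariate and single arrays left out.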

Additional observations from a re-analysis of the deposited data

Results flagged for a closer look

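Of 216 groups of arrays examined (46 named genes, the 5 complex means, the mean and the share of signal of all subunit genes, and the cardiomyocyte marker mean, in 4 groups), 18 held 1 array set apart from the others by more than Dixon's 95% critical value. Chance alone flags about 1 in 20 groups. Calorie restricted replicate 4 stood above its group in Atp5c1 (signal 9044), Atp5g1 (7200), Atp5g3 (8127) and Uqcrb (9637), in the mean log2 signal of complex IV (10.722) and in that of the cardiomyocyte markers (13.001). Ad libitum replicate 3 stood above its group in Atp5k (4736), Ndufa4 (5860) and Uqcrc1 (5711). Ad libitum replicate 2 stood below its group in Atp5g2 (2906), Cox7a2l (1224) and Ndufv1 (3344) and above it in Ndufa4l2 (252.3), and ad libitum replicate 1 stood below it in Cox4i2 (34.36). Single arrays also stood apart in Atp5mpl (wild type replicate 3, 3019), Cox6b2 (calorie restricted replicate 3, 17.63), Ndufa7 (calorie restricted replicate 1, 3106) and Sdhc (leptin replicate 4, 2707).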

How the results depend on the processing

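The number of arrays limits the precision. Of 45 genes with several probe sets above the filter, the sets had the same sign in 21 genes for leptin against ad libitum. The number was 32 for calorie restricted against ad libitum and 28 for leptin against calorie restricted. Against wild type it was 26 for ad libitum, 30 for leptin and 35 for calorie restricted. The causes of the changes below were not tested.

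Quantile normalization lowered the subunit median to 0.018 (calorie restricted), 0.036 (ad libitum) and 0.010 (leptin) against wild type, with 1 call (Ndufb2, -0.179, adjusted p = 0.0432) in calorie restricted against ad libitum. With one array left out the medians ran from 0.105 to 0.166 (ad libitum against wild type), 0.171 to 0.236 (calorie restricted against wild type), 0.129 to 0.209 (leptin against wild type), 0.028 to 0.118 (calorie restricted against ad libitum), -0.021 to 0.069 (leptin against ad libitum) and -0.092 to 0.002 (leptin against calorie restricted).

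Over all genes, leaving out one array gave 5 to 26 calls against 40 in ad libitum against wild type, so that every single omission cut that count, and 35 to 88 against 86 in leptin against ad libitum. It gave 444 to 735 against 724 in calorie restricted against ad libitum, 1378 to 1662 against 1822 in leptin against calorie restricted, 1041 to 1459 against 1504 in calorie restricted against wild type and 1 to 5 against 1 in leptin against wild type. The other alternatives gave 8 to 78 calls against 40 in ad libitum against wild type, 8 to 167 against 86 in leptin against ad libitum, 316 to 922 against 724 in calorie restricted against ad libitum, 1026 to 1981 against 1822 in leptin against calorie restricted, 891 to 1728 against 1504 in calorie restricted against wild type and 1 to 3 against 1 in leptin against wild type. The 4 members called in calorie restricted against wild type became 7 with an added value of 32, 11 with a filter at the 60th percentile, 12 with the atrial covariate and 23 with the robust trend. They became 1 with no filter, with quantile normalization, with median centring, with only the 2 groups compared and without calorie restricted replicates 2 and 3, and 0 to 5 with one array left out. The single call in leptin against calorie restricted became 2 with the filter at the 60th percentile, quantile normalization and the robust trend, and 0 without replicates 2 and 3. With the replicate block it was 1 in calorie restricted against wild type (Ndufb1), and the block changed no count of members called in another comparison. The share of all genes called under the same setting was not set beside each of these counts. The counts therefore show how the calls depend on the setting and are not read as a result about the subunit genes.

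Quantile normalization lowered the number of positive subunit genes of 80 from 76 to 46 in calorie restricted, 77 to 60 in ad libitum and 77 to 46 in leptin against wild type, 66 to 28 in calorie restricted against ad libitum and 53 to 17 in leptin against ad libitum; it was 22 as deposited and 33 quantile normalized in leptin against calorie restricted. Every alternative was run for a chosen part of the single values. Among these, the values that changed sign under quantile normalization were, in calorie restricted against wild type, Atp5b (-0.065), Atp5md (-0.004), Cox4i1 (-0.020), Cox6b1 (-0.011), Cox7a2 (-0.019), Ndufa1 (-0.009), Ndufa9 (-0.010) and Ndufb5 (-0.009). In leptin against ad libitum they were Atp5g2 (-0.010), Sdhb (-0.028), Sdhd (-0.059), Uqcr10 (-0.024) and Uqcrq (-0.020), and in calorie restricted against ad libitum Sdhc (-0.026), Sdhd (-0.023) and Uqcrh (-0.042). With the mean of all probe sets they were Atp5g1 (-0.293), Atp5g2 (-0.249) and Uqcr10 (-0.324) in calorie restricted against wild type, Atp5g1 (-0.012) and Sdhd (-0.217) in leptin against wild type, Uqcr10 (-0.023) in ad libitum against wild type, Sdhd (-0.221) and Uqcrq (-0.088) in leptin against ad libitum and Sdha (-0.034) in calorie restricted against ad libitum. With one array left out, leptin against ad libitum ran from -0.029 to 0.094 in Sdhb and from -0.026 to 0.074 in Sdhd.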
